A study of Mus musculus with 2 samples.

Results

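The genes described here encode aminoacyl-tRNA synthetases, 20 that work in the cytosol and 16 that work in mitochondria, and were chosen by symbol, a symbol that ends in 2 marking the mitochondrial enzyme. All 36 are in the deposited table of 22095 genes, and each is above 0 in both libraries. All 36 average at least 1 FPKM (fragments scaled to transcript length and to library size), a level that 11132 genes of the table reach. The libraries were made from C2C12, an established mouse myoblast line whose cells stop dividing and fuse into myotubes once serum is reduced in differentiation medium (DM). A culture transfected with an siRNA against *Malat1*, a nuclear long non-coding RNA (si*Malat1*), was set against a culture given a negative control oligo (siNC), and both had spent 2 days in DM when polyadenylated RNA was taken. There is 1 library per group, so a difference between the groups has no replicate check, no test was possible, and every ratio below compares a pair of libraries, not conditions.

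Each synthetase joins an amino acid to the tRNAs that decode it, using ATP, and so sets the supply of charged tRNA for translation. Animal cells carry separate nuclear genes for most of the enzymes of the cytosol and of mitochondria, with exceptions such as *Gars* and *Kars*, each of which encodes both the cytosolic and the mitochondrial enzyme. Many cytosolic synthetase genes are known targets of ATF4, the transcription factor that cells make when amino acids are short, when the endoplasmic reticulum is stressed or when translation is otherwise curbed. ATF4 binds, with partners of the C/EBP family, to a short DNA element that is read here as TGATGNAA on either strand.

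*Malat1* itself stood at 34.2 FPKM in si*Malat1* and 41.8 FPKM in siNC, a log2 ratio of -0.29, or 0.819 times the siNC value, so its RNA was still present after the knockdown. All log2 ratios are of si*Malat1* over siNC after adding 0.1 FPKM to each value, which slightly understates the change of low genes. Over the 11132 genes that average at least 1 FPKM, called all genes below, the median was -0.04. Of them, 42.5% had the higher value in si*Malat1*, and 10.7% had a lower log2 ratio than *Malat1*. The muscle genes *Myog* (857 FPKM in si*Malat1* and 525 in siNC), *Des*, *Ckm*, *Acta1*, *Myod1* and *Myf5* were all above 17 FPKM in both libraries. *Acta1* was likewise higher in si*Malat1* (5199 FPKM, and 3326 in siNC) and *Myf5* lower (17.3 FPKM, and 23.8 in siNC), so muscle genes that change during differentiation differed between the libraries too, and their part in the values below was not tested. Of 18 markers of leukocytes, endothelium, epithelium and adipocytes, 0 averaged 1 FPKM or more, and *Epcam* and *Adipoq* were listed at 0 in both libraries.

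Of the 20 cytosolic synthetase genes, 19 were higher in si*Malat1* (18 when the libraries were scaled to equal FPKM totals), and their log2 ratios had a median of 0.27. Of the 16 mitochondrial genes, 11 were higher (10 to 13 across the scalings tried), and the median was 0.12 (0.06 under equal totals), which put the cytosolic median 0.16 above the mitochondrial one. A log2 ratio of 0.32 or more was reached by 6 cytosolic and 2 mitochondrial genes, beside 6.58% of all genes. That count depends on the scaling, under which it lay between 5 and 9 for the cytosolic genes and between 2 and 4 for the mitochondrial genes, beside 5.17% to 7.90% of all genes. On the lower side none of the 36 was as far from 0, beside 8.6% of all genes. At 1.5-fold or more, the larger size used here, 0 cytosolic genes and 1 mitochondrial gene, *Lars2*, were higher, beside 2.39% of all genes. The mitochondrial count was 2 under equal upper quartiles, after centring on the median gene or with 0.01 FPKM added, when *Nars2* joined *Lars2*. The cytosolic pattern was therefore many small differences on the same side, and the mitochondrial one a spread about a lower median with 1 or 2 larger differences. The cytosolic genes summed to 1712 FPKM in si*Malat1* and 1425 FPKM in siNC, a ratio of 1.20. The mitochondrial genes summed to 330 FPKM in si*Malat1* and 218 FPKM in siNC, a ratio of 1.51, or 1.07 when *Lars2* is left out.

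**Figure D1:**
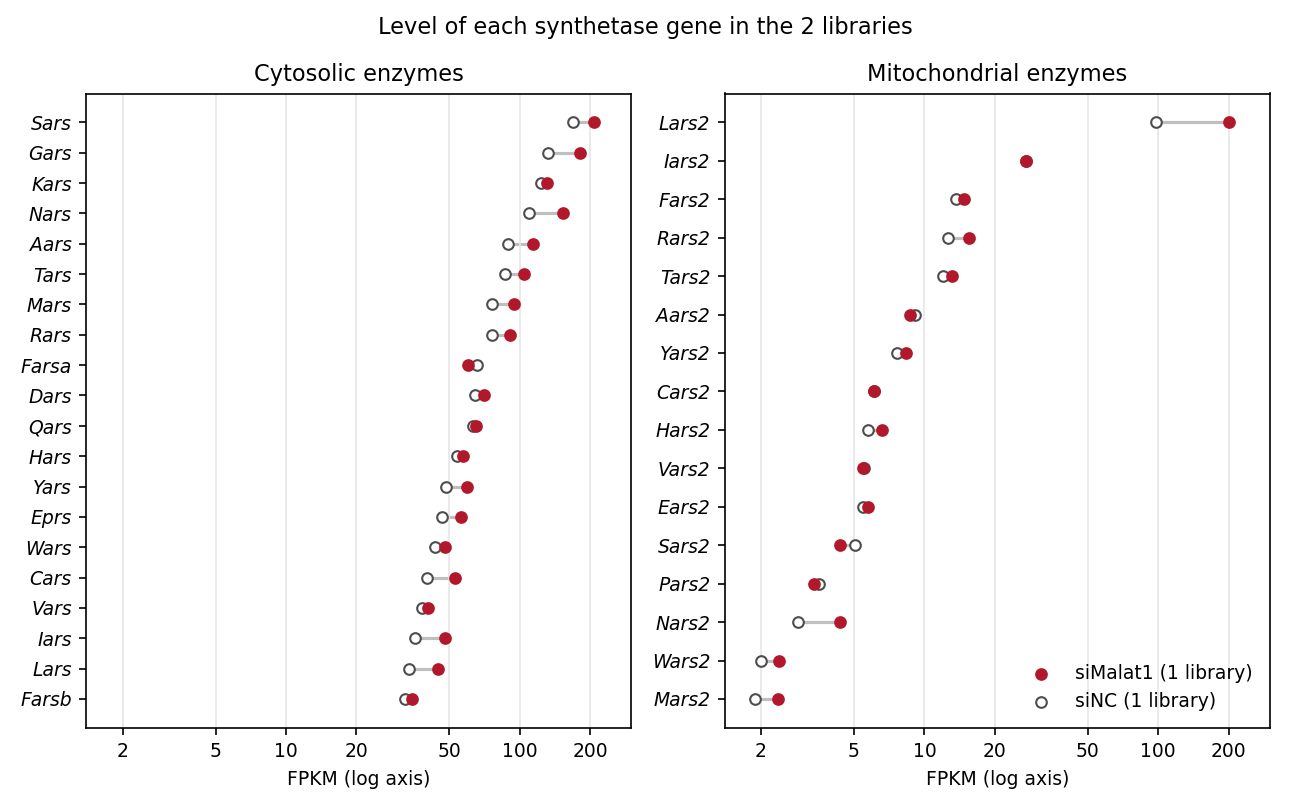
FPKM on a log axis of each synthetase gene in the si*Malat1* library (filled points) and the siNC library (open points), with cytosolic enzymes on the left and mitochondrial enzymes on the right, ordered by the siNC value. Cytosolic genes lie between 32.3 and 207 FPKM, and all mitochondrial genes but *Lars2* lie below 28 FPKM.

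The largest cytosolic log2 ratio belonged to *Nars*, which charges asparagine tRNA. It stood at 154 FPKM in si*Malat1* and 109 FPKM in siNC, a log2 ratio of 0.49. *Gars*, the glycine enzyme of both compartments, stood at 180 FPKM in si*Malat1* and 132 FPKM in siNC (0.45). By level in si*Malat1*, *Gars* ranked 2 and *Nars* 3 among the 20 cytosolic members, and in siNC *Kars* (124 FPKM) also stood above *Nars*. The next by ratio, *Lars*, *Iars* and *Cars*, ranked 18, 17 and 15 by level in si*Malat1*. Larger ratios were thus found among both high and low cytosolic members. In mm9 *Nars* lies on chromosome 18 from 64659301 to 64676211 and *Gars* on chromosome 6 from 54987995 to 55029498, neither at a shared locus. The leucine enzyme *Lars* stood at 44.8 FPKM in si*Malat1* and 33.4 FPKM in siNC (0.42). The isoleucine enzyme *Iars* stood at 47.8 FPKM in si*Malat1* and 35.8 FPKM in siNC (0.42). Within bases 3981 to 4043 of its GENCODE M21 transcript, in the 3' UTR, it matches transcripts of many other genes at 95% identity or more. Whether fragments of that stretch contribute to the values of *Iars* was not tested. The cysteine enzyme *Cars* stood at 53.0 FPKM in si*Malat1* and 40.2 FPKM in siNC (0.40). The alanine enzyme *Aars*, at 114 FPKM in si*Malat1* and 89.0 FPKM in siNC (0.36), completed the 6 genes past 0.32. In the table *Aars* shares its locus with the exosome gene *Exosc6*, which stood at 6.33 FPKM in si*Malat1* and 6.90 FPKM in siNC, and in GENCODE M21 the long transcript of *Aars* holds 1326 bases of *Exosc6*, so fragments there may count for either gene.

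A middle set lay at log2 ratios from 0.26 to 0.30. *Sars*, the serine enzyme, was the most abundant cytosolic member in both libraries, with 207 FPKM in si*Malat1* and 168 FPKM in siNC (log2 ratio 0.30). *Mars*, the methionine enzyme, whose charged initiator tRNA starts proteins made in the cytosol, stood at 94.2 FPKM in si*Malat1* and 76.3 FPKM in siNC (0.30). *Yars*, the tyrosine enzyme, stood at 59.2 FPKM in si*Malat1* and 48.3 FPKM in siNC (0.29). Both *Mars* and *Yars* share a locus with another gene, *Mars* with *Ddit3*, which encodes the stress factor CHOP, and *Yars* with *C77080*. *Ddit3* stood at 49.3 FPKM in si*Malat1* and 37.8 FPKM in siNC, and its transcript overlaps that of *Mars* over 67 bases on the opposite strand, where reads of the 2 genes cannot be told apart unless strand was kept. The bifunctional *Eprs*, which charges both glutamate and proline tRNAs, stood at 56.1 FPKM in si*Malat1* and 46.3 FPKM in siNC (0.28). The arginine enzyme *Rars* stood at 91.2 FPKM in si*Malat1* and 75.8 FPKM in siNC (0.27). The threonine enzyme *Tars* stood at 104 FPKM in si*Malat1* and 86.7 FPKM in siNC (0.26). Each of these genes had a log2 ratio above that of about 91.1% of all genes or more.

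The remaining cytosolic members lay closer to the bulk of genes. The tryptophan enzyme *Wars* stood at 48.0 FPKM in si*Malat1* and 43.3 FPKM in siNC (log2 ratio 0.15), and the aspartate enzyme *Dars* at 70.2 FPKM in si*Malat1* and 64.5 FPKM in siNC (0.12). The valine enzyme *Vars* stood at 40.6 FPKM in si*Malat1* and 38.2 FPKM in siNC (0.09). *Kars*, the lysine enzyme of both compartments, stood at 130 FPKM in si*Malat1* and 124 FPKM in siNC (0.08), a smaller ratio than that of *Gars*, the other gene that serves both. The histidine enzyme *Hars* stood at 56.9 FPKM in si*Malat1* and 54.1 FPKM in siNC (0.07). The glutamine enzyme *Qars* stood at 65.2 FPKM in si*Malat1* and 63.1 FPKM in siNC (0.05), and its sign turns when both libraries are scaled to the same FPKM total. Phenylalanine is charged in the cytosol by an enzyme of alpha and beta subunits, and its genes lay on opposite sides. *Farsa*, the alpha subunit, stood at 60.3 FPKM in si*Malat1* and 65.4 FPKM in siNC (-0.12), the only cytosolic gene that was lower. *Farsb*, the beta subunit, stood at 34.7 FPKM in si*Malat1* and 32.3 FPKM in siNC (0.10).

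Genes of the multisynthetase complex overlapped in their ratios with the other cytosolic genes. In this complex *Dars*, *Eprs*, *Iars*, *Kars*, *Lars*, *Mars*, *Qars* and *Rars* are held together by scaffold proteins. Their 8 log2 ratios ran from 0.05 to 0.42 with a median of 0.27, and those of the 12 other cytosolic genes ran from -0.12 to 0.49 with a median of 0.28. Synthetases fall into class I and class II by the fold of their catalytic domain. The 9 cytosolic genes of class I had a median log2 ratio of 0.29 and the 10 of class II a median of 0.19, with ranges of 0.05 to 0.42 and -0.12 to 0.49 that overlap almost fully; *Eprs* has a domain of each class and was left out of this count.

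**Figure D2:**
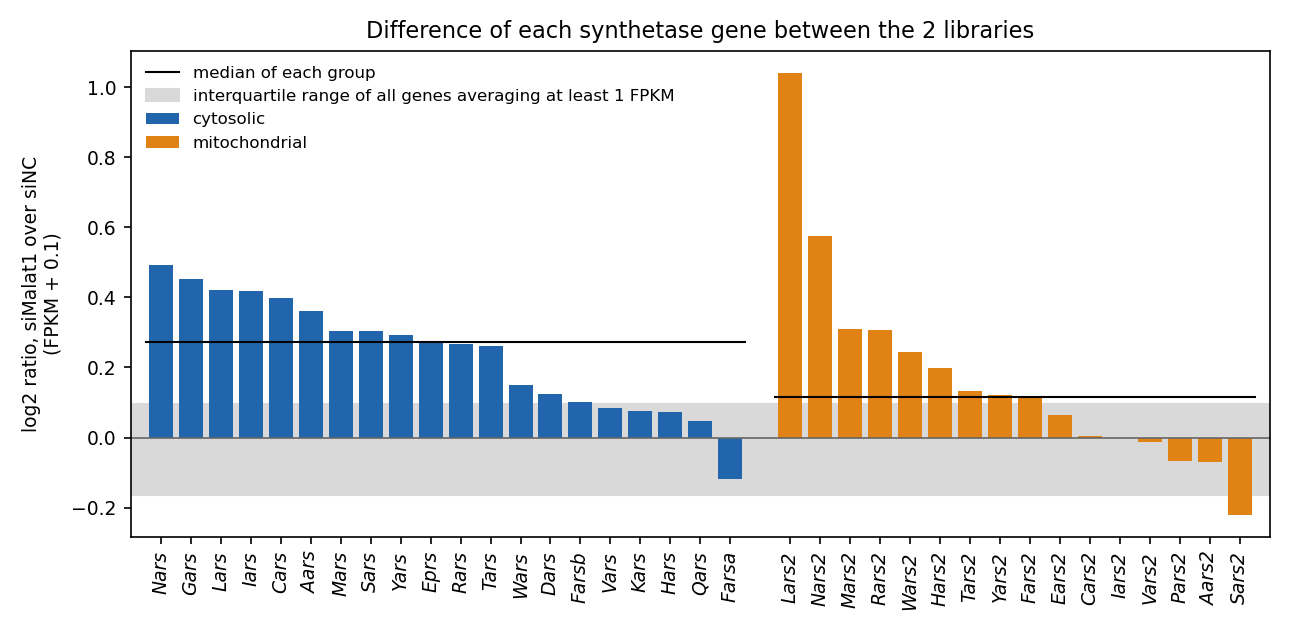
Log2 ratio of si*Malat1* over siNC of each synthetase gene, cytosolic on the left and mitochondrial on the right, each bar 1 gene. The black lines are the medians of 0.27 and 0.12, and the grey band is the interquartile range of all genes averaging at least 1 FPKM, from -0.16 to 0.10.

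Among mitochondrial enzymes the largest difference was that of *Lars2*, which charges leucine tRNA in mitochondria and is mutated in a human syndrome of deafness and ovarian failure. *Lars2* stood at 202 FPKM in si*Malat1* and 97.9 FPKM in siNC, a log2 ratio of 1.04 that was above that of 99.2% of all genes. Its level stood far above that of its group, since the next mitochondrial gene, *Iars2*, stood at 27.2 FPKM in both libraries. *Lars2* lies on chromosome 9 of mm9 from 123276058 to 123371782, at a locus that it shares with no other gene of the table. In GENCODE M21 its transcript of 3894 bases is coding from base 200 to base 2908, and bases 3278 to 3349, in the 3' UTR, match the chromosome 16 transcript *Gm15564* over 72 bases with 98.6% identity. *Gm15564* has no entry in the deposited table, and FPKM do not show where along a gene the fragments lie. Whether fragments of that stretch contribute to the values of *Lars2* was not tested.

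*Nars2*, the mitochondrial asparagine enzyme, followed with 4.35 FPKM in si*Malat1* and 2.89 FPKM in siNC, a log2 ratio of 0.57. It falls just under 1.5-fold with 0.1 FPKM added and passes it with 0.01 FPKM added. Its transcript overlaps the antisense RNA *C230038L03Rik* over 284 bases in GENCODE M21. The methionine enzyme *Mars2* stood at 2.37 FPKM in si*Malat1* and 1.89 FPKM in siNC (0.31). The arginine enzyme *Rars2* stood at 15.6 FPKM in si*Malat1* and 12.6 FPKM in siNC (0.31). The tryptophan enzyme *Wars2* stood at 2.38 FPKM in si*Malat1* and 1.99 FPKM in siNC (0.24). *Mars2* and *Wars2* are the lowest members of all, and how few fragments lie behind them is not given by FPKM.

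Further down, the histidine enzyme *Hars2* stood at 6.59 FPKM in si*Malat1* and 5.74 FPKM in siNC (log2 ratio 0.20). *Hars* and *Hars2* lie head to head on chromosome 18, on opposite strands and with 74 bases between their loci in mm9, and their transcripts overlap at the start in GENCODE M21. The threonine enzyme *Tars2* stood at 13.1 FPKM in si*Malat1* and 12.0 FPKM in siNC (0.13). The tyrosine enzyme *Yars2* stood at 8.31 FPKM in si*Malat1* and 7.64 FPKM in siNC (0.12). The phenylalanine enzyme *Fars2*, a single chain in mitochondria, stood at 14.7 FPKM in si*Malat1* and 13.6 FPKM in siNC (0.11). The glutamate enzyme *Ears2*, which also loads glutamate onto the glutamine tRNA of mitochondria, stood at 5.72 FPKM in si*Malat1* and 5.47 FPKM in siNC (0.06). The values of the next 3 genes were nearly equal in the libraries, and the sign of each turns with the scaling between them. *Cars2*, for cysteine, stood at 6.09 FPKM in si*Malat1* and 6.08 FPKM in siNC. *Iars2*, for isoleucine, stood at 27.2 FPKM in si*Malat1* and 27.2 FPKM in siNC, at a locus that holds 6 genes of the table, among them *Rab3gap2*, whose transcript overlaps 2034 bases of that of *Iars2* on the opposite strand. *Vars2*, for valine, stood at 5.48 FPKM in si*Malat1* and 5.53 FPKM in siNC. Lower in si*Malat1* were the proline enzyme *Pars2*, at 3.38 FPKM in si*Malat1* and 3.55 FPKM in siNC (-0.07), and the alanine enzyme *Aars2*, at 8.69 FPKM in si*Malat1* and 9.12 FPKM in siNC (-0.07). The serine enzyme *Sars2* was the lowest of the 36 by log2 ratio, with 4.34 FPKM in si*Malat1* and 5.07 FPKM in siNC (-0.22).

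Setting the enzymes of the same amino acid side by side gave 17 pairs, since *Eprs* pairs with both *Ears2* and *Pars2*, and *Fars2* with both cytosolic subunits. The cytosolic gene had the larger log2 ratio in 9 pairs and the mitochondrial gene in 8, so the difference between the group medians did not hold pair by pair. The median difference within a pair was 0.10 on the log2 scale. Serine showed the largest gap in favor of the cytosol, where *Sars* exceeded *Sars2* by 0.52. Alanine, isoleucine and cysteine followed with gaps of 0.43, 0.42 and 0.39, and in each of them the mitochondrial gene lay within 0.07 of 0. Leucine lay farthest in the other direction, the cytosolic minus the mitochondrial value being -0.62. For asparagine both enzymes were among the highest of their groups, with log2 ratios of 0.49 for *Nars* and 0.57 for *Nars2*. For methionine and arginine the paired enzymes differed by 0.04 or less.

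**Figure D3:**
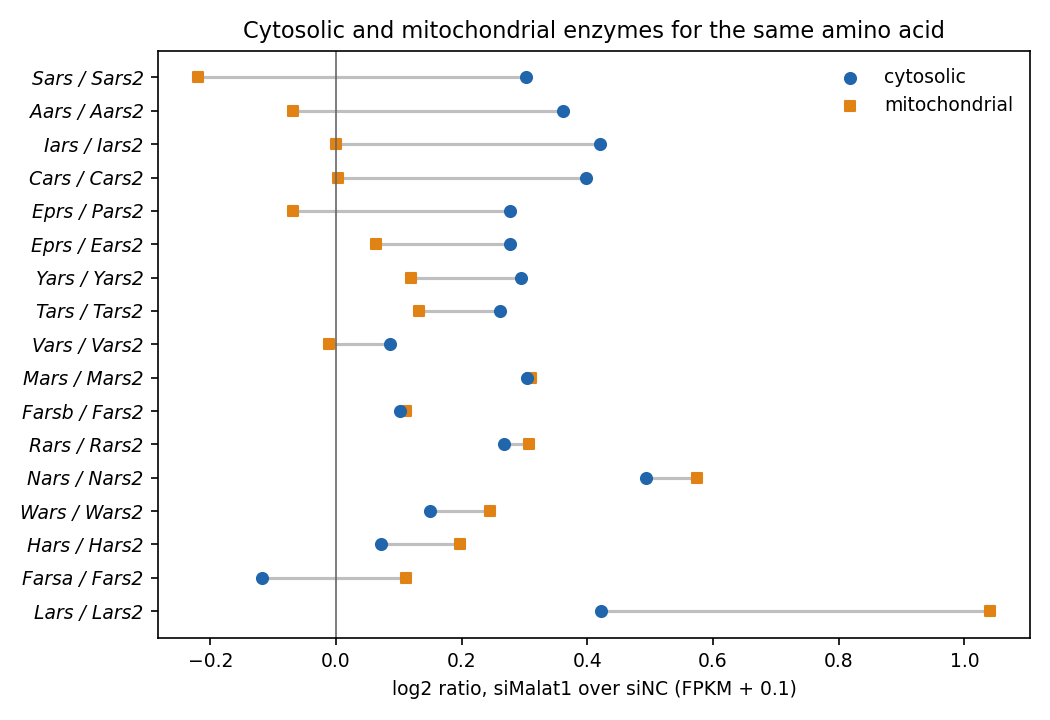
Log2 ratios of si*Malat1* over siNC for each of the 17 pairs of a cytosolic gene (circle) and a mitochondrial gene (square) that charge the same amino acid, ordered by the cytosolic minus the mitochondrial value. The serine pair is at the top with a gap of 0.52, the leucine pair is at the bottom with a gap of -0.62, and 9 of the 17 circles lie to the right of their square.

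By level, the cytosolic enzyme stood above its mitochondrial counterpart in 16 of the 17 pairs in both libraries. The median ratio of the cytosolic over the mitochondrial FPKM was 8.63 in si*Malat1* and 7.24 in siNC. The highest ratio was that of serine in si*Malat1*, at 47.8 (33.2 in siNC), and that of methionine in siNC, at 40.3 (39.7 in si*Malat1*). Leucine was the exception, since *Lars* reached 0.222 times the FPKM of *Lars2* in si*Malat1* and 0.341 times in siNC. Within each library, then, *Lars2* was the one mitochondrial gene whose FPKM exceeded that of its cytosolic partner.

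Other genes that handle tRNA were set beside the contrast. Their lists were chosen with earlier results of these data known, so they are not an independent frame. Among 10 partners of the cytosolic synthetases and other cytosolic tRNA genes, 7 were higher in si*Malat1* (8 under equal upper quartiles or after centring on the median gene), beside 42.5% of all genes, and the median log2 ratio was 0.17. Past 0.32 were 2 of them, or 1 under equal totals, beside 6.58% of all genes. *Eef1e1*, a scaffold protein of the multisynthetase complex, stood at 40.8 FPKM in si*Malat1* and 29.2 FPKM in siNC (0.48), and *Xpot*, which exports tRNA from the nucleus, at 20.9 FPKM in si*Malat1* and 16.6 FPKM in siNC (0.33). *Dtd1*, which removes D-amino acids from tRNA, followed with 7.88 FPKM in si*Malat1* and 6.70 FPKM in siNC (0.23). The low end of this list held *Pstk*, a kinase of selenocysteine tRNA (5.57 FPKM in si*Malat1* and 5.83 in siNC, -0.07), and *Aarsd1* (20.9 FPKM in si*Malat1* and 22.4 in siNC, -0.10).

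The other genes that charge or modify tRNA in mitochondria split evenly. Of 14 in the table, 7 were higher and 7 lower (4 higher under equal totals and 8 after centring), beside 42.5% of all genes higher, and the median log2 ratio was -0.00. Of these, 1, the methyltransferase *Trmt61b* (1.2515 FPKM in si*Malat1* and 1.64 in siNC, -0.37), was lower by more than 0.32, beside 8.6% of all genes. The highest were the tRNA modification enzyme *Mto1* (6.36 FPKM in si*Malat1* and 5.59 in siNC, 0.18), *Hsd17b10*, a subunit of mitochondrial RNase P (94.7 FPKM in si*Malat1* and 83.6 in siNC, 0.18), and its partner *Rg9mtd1* (12.2 FPKM in si*Malat1* and 11.1 in siNC, 0.13), and *Trit1*, which modifies the anticodon loop, was next to the lowest (10.6 FPKM in si*Malat1* and 11.5 in siNC, -0.11). Of 8 mitochondrial translation factors, 5 were higher (4 to 6 across the scalings), none past 0.32, and the median was 0.06 (0.01 to 0.10 across the scalings). They ran from the elongation factor *Tufm* (47.8 FPKM in si*Malat1* and 40.8 in siNC, 0.23), its exchange factor *Tsfm* (23.6 and 20.6 FPKM, 0.20) and *Gfm2*, which recycles ribosomes (9.77 and 9.12 FPKM, 0.10), to the elongation factor *Gfm1* (22.5 and 24.03 FPKM, -0.09) and the initiation factor *Mtif3* (11.7 and 12.7 FPKM, -0.12), the si*Malat1* value standing first in each.

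Among 76 mitochondrial ribosomal protein genes, 64 were higher in si*Malat1* (52 to 71 across the scalings), beside 42.5% of all genes, and the median log2 ratio was 0.11 (0.06 to 0.14 across the scalings). Past 0.32 were 3 of them (2 under equal totals), or 3.95%, which is below the 6.58% of all genes. *Mrpl48* had the largest ratio, with 21.2 FPKM in si*Malat1* and 11.1 FPKM in siNC (0.93), at a locus it shares with another gene, and *Mrpl27* stood at 15.7 FPKM in si*Malat1* and 11.8 FPKM in siNC (0.41). *Mrps34* (35.01 FPKM in si*Malat1* and 37.7 in siNC, -0.11) and *Mrpl18* (24.4 FPKM in si*Malat1* and 25.6 in siNC, -0.07) lay at the low end.

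Genes of amino acid supply and stress that are linked to ATF4 had a larger median log2 ratio than either group of synthetases. This list too was chosen with earlier results of these data known. All 22 of that list that average at least 1 FPKM were above their siNC value in si*Malat1* (20 under equal totals), beside 42.5% of all genes, and the median log2 ratio was 0.57. Past 0.32 were 18 of them (17 under equal totals), beside 6.58% of all genes. The pseudokinase gene *Trib3* stood at 15.9 FPKM in si*Malat1* and 5.53 FPKM in siNC (1.503), *Chac1*, which degrades glutathione, at 40.9 FPKM in si*Malat1* and 17.7 FPKM in siNC (1.20), and *Asns*, which makes asparagine, at 107 FPKM in si*Malat1* and 47.6 FPKM in siNC (1.17). The smallest ratios were those of *Ddit4*, an inhibitor of mTORC1 (18.0 FPKM in si*Malat1* and 17.8 in siNC, 0.02), and *Cebpb* (44.8 FPKM in si*Malat1* and 43.8 in siNC, 0.03). The cytosolic synthetases thus lay between these genes and the bulk of the table.

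**Figure D4:**
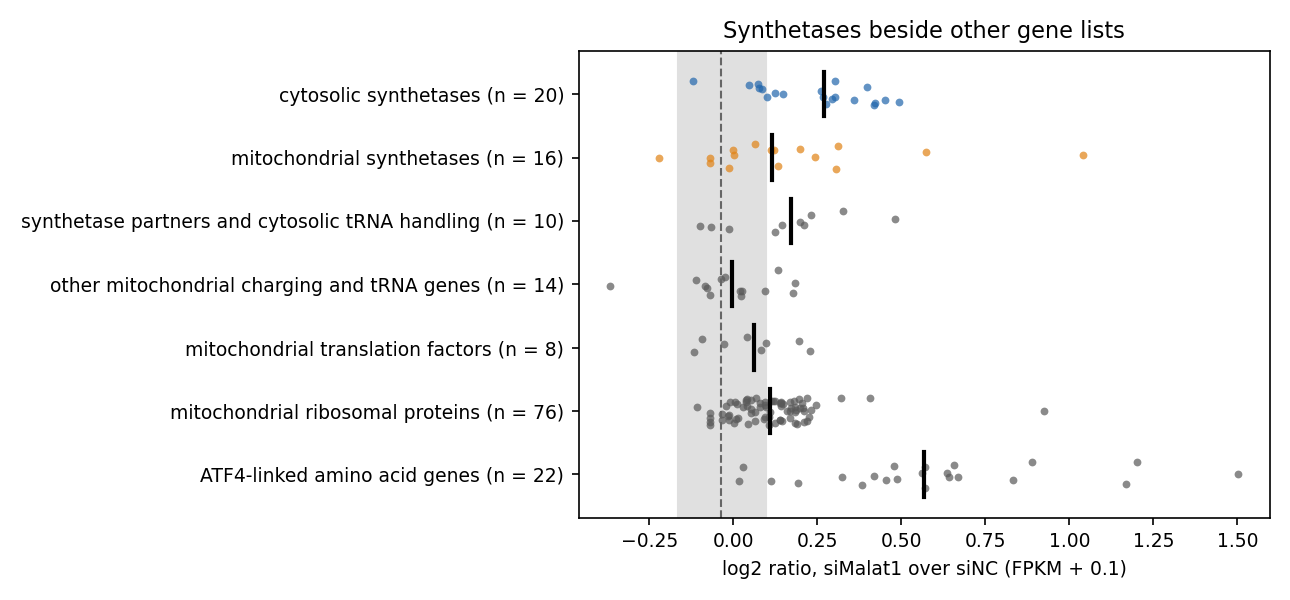
Log2 ratio of si*Malat1* over siNC for every gene averaging at least 1 FPKM in the synthetase groups and 5 other lists, 1 point per gene, with a black bar at each median. The dashed line is the median of all 11132 genes (-0.04) and the grey band their interquartile range, from -0.16 to 0.10; the medians are 0.27 for cytosolic synthetases, 0.12 for mitochondrial synthetases and 0.57 for genes linked to ATF4.

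Promoters were read because the cytosolic genes leaned the same way, and the element was chosen with earlier results of these data known. TGATGNAA was searched on both strands from 250 bases before to 50 bases after each annotated start. RefSeq windows of GRCm38.p6 were matched for 27 of the 36 genes (*Mars* as *Mars1*), and *Cars*, *Hars*, *Hars2*, *Lars*, *Nars*, *Pars2*, *Rars*, *Vars* and *Wars* were not matched. The element was found in 5 of 13 cytosolic genes and in 0 of 14 mitochondrial genes, and in 2.61% of the 7769 genes of the table that have a window and average at least 1 FPKM. In 4 of these 5 genes every match reads on the strand opposite to transcription, and all lie within 112 bases of the start. The 5 promoters are shown from base -125 to base 25, counted from 1 at the first transcribed base with no base 0, on the strand of the gene and with the matches in capitals, so that the position of the element can be compared. They are *Aars* at chr8:111033717-111033866, *Gars* at chr6:55037876-55038025, *Iars* at chr13:49682005-49682154 and *Yars* at chr4:129189778-129189927 on the plus strand, and *Tars* at chr15:11399634-11399783 on the minus strand.
Aars: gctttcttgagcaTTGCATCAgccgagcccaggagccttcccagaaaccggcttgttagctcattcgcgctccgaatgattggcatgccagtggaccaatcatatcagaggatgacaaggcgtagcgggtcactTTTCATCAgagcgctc
Gars: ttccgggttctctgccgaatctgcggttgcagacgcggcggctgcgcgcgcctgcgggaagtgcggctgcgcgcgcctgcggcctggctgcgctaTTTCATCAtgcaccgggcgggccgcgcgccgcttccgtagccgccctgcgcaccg
Iars: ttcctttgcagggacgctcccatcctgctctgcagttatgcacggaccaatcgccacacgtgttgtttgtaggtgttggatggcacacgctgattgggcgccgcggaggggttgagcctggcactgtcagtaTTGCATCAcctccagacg
Tars: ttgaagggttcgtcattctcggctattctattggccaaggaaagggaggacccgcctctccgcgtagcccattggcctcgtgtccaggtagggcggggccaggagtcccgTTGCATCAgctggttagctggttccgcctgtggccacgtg
Yars: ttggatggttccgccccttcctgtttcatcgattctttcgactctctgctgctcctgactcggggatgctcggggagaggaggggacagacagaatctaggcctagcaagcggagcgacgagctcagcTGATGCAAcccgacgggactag
In *Aars* the element occurs at 2 places, as TGATGCAA at bases -112 to -105 and as TGATGAAA at bases 10 to 17. *Gars* carries TGATGAAA at bases -30 to -23. *Iars* (bases 8 to 15), *Tars* (bases -15 to -8) and *Yars* (bases 4 to 11, the one match on the strand of transcription) each carry TGATGCAA.

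The 5 cytosolic genes with a match had log2 ratios from 0.26 to 0.45 with a median of 0.36. The 8 without a match, *Dars*, *Eprs*, *Farsa*, *Farsb*, *Kars*, *Mars*, *Qars* and *Sars*, ran from -0.12 to 0.30 with a median of 0.11, and the ranges overlap. The cytosolic genes with no window, *Cars*, *Hars*, *Lars*, *Nars*, *Rars*, *Vars* and *Wars*, are in neither set and ran from 0.07 to 0.49. Among them are *Nars* (0.49), *Lars* (0.42) and *Cars* (0.40), so both medians could differ with their windows read. The 14 mitochondrial genes, none with a match, had a median of 0.12 and included *Lars2* and *Nars2*, the largest ratios of all members. Over the table as a whole the median was -0.04 for the 203 genes with a match and -0.04 for the 7566 without. At any expression level, 7 of 22 ATF4-list genes with a window held a match, beside 4.51% of all 27025 genes with a window. The 7 were *Trib3* (log2 ratio 1.503), *Chac1* (1.20), *Asns* (1.17), *Nupr1* (0.66), *Slc7a11* (0.32), *Pycr1* (0.19) and *Vldlr* (0.10). Of these, *Vldlr* averages below 1 FPKM. Whether ratios within the ATF4 list differ with the match was not tested. A match describes letters in a window, and no binding was measured here.

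**Figure D5:**
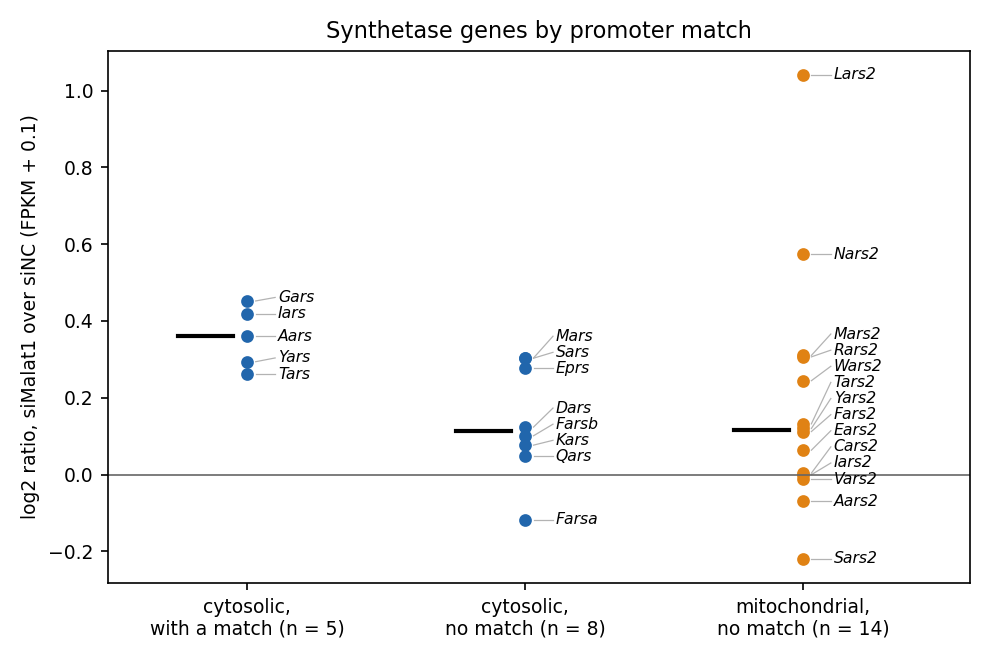
Log2 ratio of si*Malat1* over siNC of the 27 synthetase genes with a promoter window, split by compartment and by whether the window holds TGATGNAA, each point 1 gene and each black bar a median (0.36, 0.11 and 0.12). All 5 genes with a match lie at 0.26 or above, and the 2 highest points of the plot, *Lars2* and *Nars2*, have no match.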

How the data were processed

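RNA of 1 si*Malat1* and 1 siNC culture was sequenced as paired reads of 50 bases. By the submitters' processing notes the authors used mm9, TopHat2 2.0.9, Cufflinks 2.1.1 and Cuffdiff 2.1.1, and they deposited FPKM per gene. The annotation and library strand are not given in the sources used here. The authors' fold changes and significance marks in the table were not used. Locus starts were raised by 1, which made 6044 of 16386 unshared loci equal in length to RefSeq genes (414 otherwise).

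Log2 ratios were taken of FPKM plus 0.1, and genes had to average 1 FPKM to be counted. FPKM sum to 502715 in si*Malat1* and 484715 in siNC, hold no counts and give no counting error. Among 1937 genes averaging up to 0.1 FPKM, 457 fit a step 1.09 times larger in si*Malat1*, as ratios of whole numbers up to 5 within 0.004 (natural log), against a median of 58 for other steps, so relative depth is known only up to such a ratio.

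Members, lists and the promoter element were chosen with earlier results of these data known. All members, *Malat1* and the 3 highest and 2 lowest genes of each list (2 and 2 for mitochondrial ribosomal proteins) are named, and *Ddit3* and other locus neighbors were added after their values were seen. Longest coding transcripts of GENCODE M21 (GRCm38) were searched in those of other genes with BLAST+ 2.17.0 (95% identity, 50 bases). Such a stretch was found for 13 of the 36 members, and not every match is named above. Alternatives were other pseudocounts, filters, scalings, folds and gene sets. Python 3.11.15, numpy 2.4.6, pandas 2.3.3 and matplotlib 3.10.9 were used, and the ratios and medians were tested on simulated data.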

Additional observations from a re-analysis of the deposited data

How the results depend on the processing

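With 2 libraries in all, neither culture nor counting error can be measured. The cytosolic median stayed between 0.22 and 0.31, the mitochondrial median between 0.06 and 0.15, and the cytosolic minus the mitochondrial median between 0.14 and 0.16, under every pseudocount (0.01 and 1 FPKM), filter (none, and a mean of at least 5 FPKM), scaling (equal totals, equal upper quartiles, centring on the median gene) and gene set tried (without genes that share a locus, without *Kars* and *Gars*, and without *Lars2*, the last chosen after seeing the data). The cytosolic gene had the larger log2 ratio in 9 of 17 pairs, in 11 of 17 with 1 FPKM added, in 7 of 12 at a mean of at least 5 FPKM and in 6 of 13 without shared loci. The count of cytosolic genes higher by the chosen fold was 0 at 1.5-fold and 6 at a log2 ratio of 0.32. The mitochondrial count was 1 at 1.5-fold and 2 at a log2 ratio of 0.32, 2 with 0.01 FPKM added, 2 under equal upper quartiles, 2 after centring on the median gene, and 0 without *Lars2*. Under equal totals the signs of *Qars* and *Cars2* turned, leaving 18 of 20 and 10 of 16 genes higher, and under equal upper quartiles or centring those of *Iars2* and *Vars2* turned, giving 19 of 20 and 13 of 16. With 1 FPKM added the log2 ratio of *Nars2* was 0.46. No paired analysis was possible because there is 1 library per group.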
